A study of Mus musculus with 6 samples.

Results

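Trem2, Gpnmb, Cd9, Cd63, Lgals3, Fabp5 and Itgax are 7 genes that mark lipid-associated macrophages, the cells that gather around lipid-laden or dying hepatocytes in injured liver. They were found as the rows of the deposited gene count table whose Ensembl identifiers belong to these symbols in the GENCODE annotation of mouse genome build GRCm38, and they make up 7 of 54532 rows with an Ensembl identifier. All 7 passed the filter on low counts and were among the 14145 genes tested. Liver RNA came from 6 mice, 1 library per mouse, of which 3 were wild-type and 3 were Cd44-/- mice of the line B6.Cg-Cd44tm1Hbg/J, in which the hyaluronan receptor CD44 is missing from every cell of the body. Mice of both genotypes were fed the Lieber-DeCarli liquid diet at 5% ethanol (vol) over 10 days, were gavaged with ethanol at 5 g/kg on day 11, and had their livers taken 9 hours afterwards. The comparison therefore asks how ethanol-exposed liver differed with and without Cd44, and no mouse without ethanol was analysed here. The age of the mice is not given in the sources used here, nor is their sex or whether they were littermates.

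Lipid-associated macrophages take up lipid and cell debris and pass it to a swollen lysosomal compartment. TREM2, a surface receptor for lipids, lipoproteins and apoptotic cells, signals through the adaptor TYROBP and is needed for much of this gene programme, and the other genes supply membrane glycoproteins, tetraspanins of late endosomes, a galectin that recognises damaged lysosomes, a fatty acid chaperone and an integrin of myeloid cells. In fatty and fibrotic liver such cells arise largely from recruited monocytes, and in scarred liver they are also called scar-associated macrophages. Most of the 7 genes are not exclusive to them: CD9, CD63, galectin-3 and FABP5 occur in many cell types.

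In the knockout livers the mean of each of the 7 genes was the lower, but none passed the test once the p value was adjusted over all genes. In 51.1% of all genes tested the knockout mean was the lower. The median log2 fold change, knockout relative to wild-type, was −1.19 over the 7 genes and −0.01 over all genes tested. Lgals3 and Trem2 had the smallest p values, Fabp5 differed the least, and the size of the difference in Gpnmb and Cd63 rested on wild-type mouse 3. By edgeR's quasi-likelihood test with Benjamini-Hochberg adjustment, 0 of the 7 passed an adjusted p of 0.05, as did 0.0141% of all genes. Before adjustment 5 of the 7 had p under 0.05 and a lower level, against 7.59% of all genes (12.8% in either direction). A log2 fold change of −1 or lower was reached by 5 of the 7 and by 4.05% of all genes. DESeq2 called 2 of the 7 lower, Trem2 and Lgals3, against 1.51% of the genes it tested (2.38% in either direction), and limma-voom called 0, as it did for all genes (0%), with 4 of the 7 under an unadjusted p of 0.05 (12% of all genes, either direction). In bulk liver, fewer cells of a type and less RNA per cell cannot be told apart, and this holds for every gene described here.

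The promoters of Trem2, Itgax and Gpnmb are shown because they belong to the receptor, the integrin and the gene with the widest spread between mice, and because PU.1 and AP-1 are known activators of macrophage genes. Each run holds the 250 bases before the RefSeq transcription start on GRCm38.p6, 5′ to 3′, with matches to the searched motifs in capitals.
Trem2, chr17:48346151-48346400, plus strand: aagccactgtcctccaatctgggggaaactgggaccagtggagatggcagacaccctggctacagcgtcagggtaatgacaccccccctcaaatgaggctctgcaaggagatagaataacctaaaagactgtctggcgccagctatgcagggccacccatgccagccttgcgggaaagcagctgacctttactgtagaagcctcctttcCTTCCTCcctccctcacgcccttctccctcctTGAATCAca
Itgax, chr7:128129300-128129549, plus strand: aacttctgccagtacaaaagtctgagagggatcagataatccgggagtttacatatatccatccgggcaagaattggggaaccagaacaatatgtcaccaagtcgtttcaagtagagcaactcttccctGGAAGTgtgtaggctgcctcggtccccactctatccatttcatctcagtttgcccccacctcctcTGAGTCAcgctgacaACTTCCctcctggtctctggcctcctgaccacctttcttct
Gpnmb, chr6:49036268-49036517, plus strand: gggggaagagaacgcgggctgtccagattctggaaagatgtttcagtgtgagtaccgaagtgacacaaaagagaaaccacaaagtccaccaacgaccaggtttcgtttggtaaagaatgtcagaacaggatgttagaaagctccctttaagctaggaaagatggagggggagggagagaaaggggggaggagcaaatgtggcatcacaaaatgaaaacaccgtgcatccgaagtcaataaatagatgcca
Both strands were searched for 4 motifs: the AP-1 motif TGANTCA, the PU.1 motif GAGGAAG, the shorter PU.1 and ETS core GGAAGT, and the E-box CACGTG of the MITF and TFE lysosomal factors. The PU.1 motif and the core share the letters GGAAG but not a whole match. Trem2 held an AP-1 match (TGAATCA) 9 to 3 bases before the start and a PU.1 match on the opposite strand (CTTCCTC) at 41 to 35 bases. Itgax held an AP-1 match (TGAGTCA) at 56 to 50 bases and the core at 121 to 116 bases and, on the opposite strand (ACTTCC), at 41 to 36 bases. The Gpnmb window held none of the 4. Of 32851 mouse promoters of the same length, 6.75% held the AP-1 motif, 10.6% the PU.1 motif, 19.7% the core and 6.02% the E-box. Over the 6 of 7 genes with an entry in the promoter table, which lacks Fabp5, 2 held the AP-1 motif (Trem2 and Itgax), 2 the PU.1 motif (Trem2 and Cd63), 2 the core (Cd63 and Itgax) and 0 the E-box. These matches describe letters in a window and no binding was measured.

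Reads assigned to annotated genes ran from 15429784 to 19293777 per library, so that the limit set by a count of 0, taken as 3 counts, came to between 0.155 and 0.194 CPM, the count scaled to a library of 1e6 reads. Counting error alone is covered by this limit. Cd44, the targeted gene, had 590, 175 and 568 counts in wild-type mice 1, 2 and 3 and 1, 0 and 0 counts in knockout mice 1, 2 and 3 (adjusted p = 0.00647, edgeR), and each library thus bore out its label. That call was lost with an adjusted p of 0.331, 0.0977 and 0.158 without knockout 1, 2 and 3, and of 0.283 with limma-voom. Levels below are CPM on library sizes normalised by the trimmed mean of M values (TMM), given for mice 1, 2 and 3 of each genotype in that order, and fold changes are on the log2 scale with their standard error. With 3 against 3 mice an exact two-sided permutation test cannot go below p = 0.1.

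Trem2 (ENSMUSG00000023992; chromosome 17, 48346401 to 48354147, plus strand) was counted 74, 73 and 218 times in wild-type livers and 28, 46 and 12 times in knockout livers. On the CPM scale this was 4.02, 4.76 and 11.1 in wild-type and 1.86, 2.30 and 0.823 in knockout mice. Every wild-type mouse lay above every knockout mouse, wild-type 3 was the highest and knockout 3 the lowest. The means were 6.63 ± 3.89 and 1.66 ± 0.76 CPM (SD, n = 3 per genotype), and the wild-type mean was 3.99 times the knockout mean, or 2.64 times without wild-type 3. The log2 fold change was −1.97 ± 0.50 (unadjusted p = 0.0046, adjusted p = 0.218 by edgeR, 0.0112 by DESeq2, exact permutation p = 0.1). It ran from −2.30 to −1.35 as each mouse was left out.

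The tested genes listed for TREM2 signalling and shedding had lower means. So did the Kupffer cell markers and beta-2 integrin genes described below (median log2 fold changes −1.30 and −0.99). Tyrobp, the adaptor that carries the activating motif for TREM2, had 19.9, 10.1 and 23.7 CPM in wild-type and 7.83, 6.11 and 5.76 CPM in knockout mice, with no overlap between genotypes. Its log2 fold change was −1.45 ± 0.31 (adjusted p = 0.217 by edgeR, 0.00303 by DESeq2). Of 12 genes of TREM2 signalling and shedding, 10 were tested, and the knockout mean was the lower for all 10 (median log2 fold change −0.89). In edgeR 0 of them passed the adjusted threshold and 7 had an unadjusted p under 0.05, against 7.59% of all genes on the lower side. DESeq2 called 2, Tyrobp and Btk, against 1.51% of the genes it tested on the lower side. Btk, a tyrosine kinase downstream of SYK, gave −1.61 ± 0.40 (adjusted p = 0.217 by edgeR, 0.0455 by DESeq2). The phosphatase gene Inpp5d, which restrains the pathway, gave −0.94 ± 0.30 and the exchange factor gene Vav1 −0.87 ± 0.29, with adjusted p of 0.274 and 0.281 by edgeR. Among the 5 other TREM receptors listed, Treml4 alone had enough counts to be tested (−1.32 ± 0.45, adjusted p = 0.301 by edgeR), with 14.6, 3.85 and 9.43 CPM in wild-type against 4.45, 3.96 and 2.81 CPM in knockout mice.

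Gpnmb, a transmembrane glycoprotein of lysosomes and melanosomes and a target of MITF, varied more between mice than any other of the 7 genes. The gene (ENSMUSG00000029816; chromosome 6, 49036546 to 49070929, plus strand) had 66, 86 and 817 counts in wild-type and 45, 76 and 16 in knockout mice, or 3.59, 5.61 and 41.6 against 2.99, 3.81 and 1.10 CPM. Wild-type 3 stood at 9.05 times the mean of wild-type 1 and 2, a ratio reached by 20 of the 14145 genes (0.141%). The genotypes overlapped, since wild-type 1 lay below knockout 2. The means were 16.9 ± 21.4 and 2.63 ± 1.39 CPM (SD, n = 3 per genotype), and the SD in wild-type exceeded the mean. The log2 fold change of −2.67 ± 1.02 had an unadjusted p of 0.0374 and an adjusted p of 0.359 by edgeR and 0.214 by DESeq2, and the exact permutation p was 0.2. Without wild-type 3 it was −0.75 (adjusted p = 0.559 by edgeR), and the wild-type mean was then 1.75 times the knockout mean in place of 6.44 times.

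**Figure D1:**
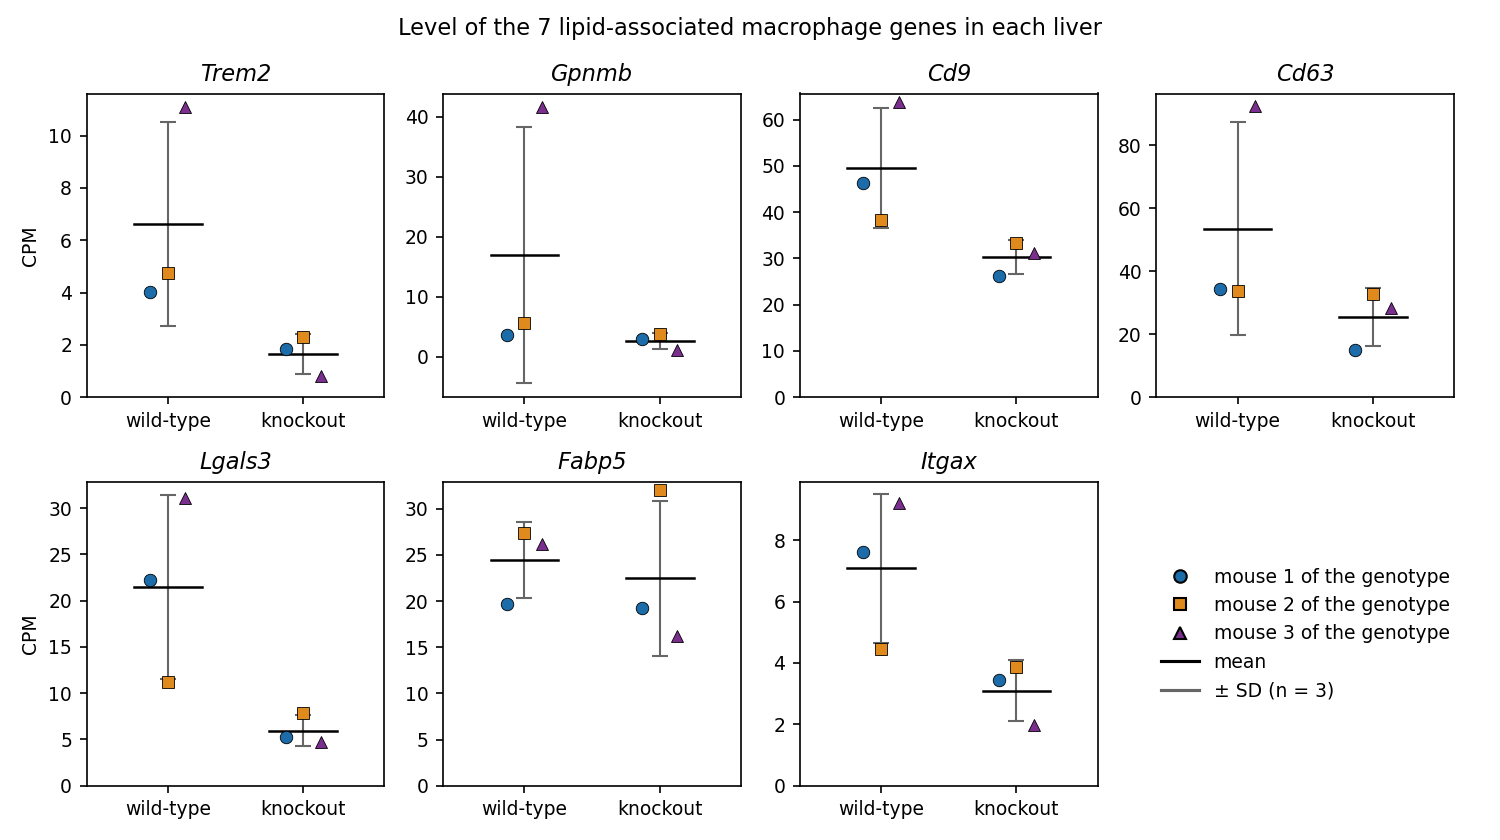
Level of each of the 7 genes in every liver. The y axis is TMM-normalised CPM on a linear scale of its own per gene, symbols are mice 1, 2 and 3 of each genotype, horizontal bars are means and whiskers ± SD (n = 3). Wild-type mouse 3, the purple triangle, is the highest of the 6 for every gene but Fabp5, and knockout mice lie below all wild-type mice for Trem2, Cd9, Cd63, Lgals3 and Itgax.

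Both tetraspanins, small membrane proteins that organise receptors and endosomal vesicles, were lower in every knockout mouse than in any wild-type mouse, by a narrow margin. Cd9 (ENSMUSG00000030342; chromosome 6, 125460266 to 125494791, minus strand), which acts at the cell surface and in membrane fusion, had 46.3, 38.4 and 63.8 CPM in wild-type and 26.3, 33.4 and 31.2 CPM in knockout mice. The lowest wild-type value was 1.15 times the highest knockout value. Means of 49.5 ± 13 and 30.3 ± 3.65 CPM (SD, n = 3 per genotype) gave a log2 fold change of −0.71 ± 0.20 (adjusted p = 0.232 by edgeR, 0.0712 by DESeq2, exact permutation p = 0.1). Cd63 (ENSMUSG00000025351; chromosome 10, 128900989 to 128912822, plus strand), a resident of late endosomes, lysosomes and exosomes, had 34.3, 33.7 and 92.6 CPM in wild-type and 15.1, 32.8 and 28.4 CPM in knockout mice. Here the gap between the genotypes was 1.03 times, and wild-type 3 stood at 2.73 times the mean of wild-type 1 and 2, a ratio reached by 258 genes (1.82%). The Cd63 means were 53.5 ± 33.8 and 25.4 ± 9.20 CPM (SD, n = 3 per genotype). Its log2 fold change was −1.07 ± 0.48 (adjusted p = 0.416 by edgeR, 0.165 by DESeq2, exact permutation p = 0.1) and −0.41 without wild-type 3, where the ratio of means went from 2.10 to 1.34.

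Among 12 tetraspanins, Cd9 and Cd63 included, the knockout mean was the lower for 10 and the higher for 2 (median log2 fold change −0.23). It was the lower for 51.1% of all genes. In edgeR 0 passed the adjusted threshold and 3 had an unadjusted p under 0.05, all lower, against 7.59% of all genes. The genotypes did not overlap for 3, namely Cd9, Cd63 and Cd53, all lower, against 9.42% of all genes. DESeq2 called 1, the leukocyte tetraspanin Cd53, against 1.51% of the genes it tested on the lower side. Cd53 had 12.0, 6.0 and 12.1 CPM in wild-type and 5.31, 4.81 and 4.25 CPM in knockout mice (−1.07 ± 0.29, adjusted p = 0.226 by edgeR, 0.0476 by DESeq2). Cd151, a partner of laminin-binding integrins, gave −0.31 ± 0.13 (adjusted p = 0.386 by edgeR).

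Lgals3 had the smallest p value of the 7 genes and, like the others except Fabp5, was lower in the knockout whichever mouse was left out. It encodes galectin-3, a secreted and cytosolic lectin that binds galactose-containing glycans and collects on ruptured lysosomes. The gene (ENSMUSG00000050335; chromosome 14, 47367751 to 47386160, plus strand) had 408, 172 and 611 counts in wild-type and 80, 156 and 69 in knockout mice, or 22.2, 11.2 and 31.1 against 5.31, 7.81 and 4.73 CPM. Every wild-type mouse lay above every knockout mouse, and the lowest wild-type value was 1.44 times the highest knockout value. The log2 fold change of −1.85 ± 0.38 had an unadjusted p of 0.00149 and an adjusted p of 0.217 by edgeR and 0.00038 by DESeq2, and the exact permutation p was 0.1. It lay between −2.14 and −1.48 as each mouse was left out, and without wild-type 2 it passed edgeR's threshold (adjusted p = 0.0188), as did 0.97% of genes on the lower side in that fit. Of 6 galectins and galectin ligand genes, Lgals3 included, 4 had a lower and 2 a higher mean, against 51.1% of all genes lower. Lgals1, galectin-1, lay lower without overlap at 39.5, 45.2 and 49.6 CPM in wild-type and 21.6, 30.1 and 32.0 CPM in knockout mice (−0.68 ± 0.17, adjusted p = 0.217 by edgeR, 0.0489 by DESeq2). Lgals8, galectin-8, lay the other way, at 159, 184 and 131 against 232, 224 and 230 CPM (0.53 ± 0.15, adjusted p = 0.232 by edgeR, 0.0537 by DESeq2).

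The Fabp5 means of the genotypes lay within 1 SD of each other. It encodes the epidermal fatty acid binding protein, a cytosolic carrier of long-chain fatty acids. The gene (ENSMUSG00000027533; chromosome 3, 10012548 to 10016607, plus strand) had 19.7, 27.4 and 26.2 CPM in wild-type and 19.2, 32.0 and 16.2 CPM in knockout mice, and knockout 2 was the highest of the 6. Means of 24.4 ± 4.15 and 22.5 ± 8.35 CPM (SD, n = 3 per genotype) gave a log2 fold change of −0.12 ± 0.26 (adjusted p = 0.903 by edgeR, 0.958 by DESeq2, exact permutation p = 0.7). The sign turned when knockout 3 was left out, to 0.08. Of 6 fatty acid binding protein genes, Fabp5 included, 5 were tested, with 0 called by edgeR or DESeq2. The mean was lower for 4 of them (median −0.63), against 51.1% of all genes. In edgeR 2 were under an unadjusted p of 0.05, both lower, against 7.59% of all genes. The intestinal form Fabp2 had 59.8, 77.5 and 84.0 CPM in wild-type and 41.3, 47.2 and 54.8 CPM in knockout mice (−0.63 ± 0.17, adjusted p = 0.22 by edgeR). Fabp4, the adipocyte and macrophage form, ranged from 14.3 to 56.1 CPM in wild-type mice and from 7.34 to 26.4 CPM in knockout mice (−0.88 ± 0.61, adjusted p = 0.622 by edgeR), and gave −0.13 without wild-type 2, its highest mouse.

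Itgax encodes CD11c, the alpha X chain that pairs with the beta-2 chain Itgb2 into a complement receptor of macrophages and dendritic cells. The gene (ENSMUSG00000030789; chromosome 7, 128129547 to 128150657, plus strand) had 140, 68 and 181 counts in wild-type and 52, 77 and 29 in knockout mice, or 7.61, 4.44 and 9.22 against 3.45, 3.86 and 1.99 CPM. After normalisation the genotypes did not overlap, although the count of wild-type 2 lay below that of knockout 2. The means were 7.09 ± 2.43 and 3.10 ± 0.983 CPM (SD, n = 3 per genotype), with a log2 fold change of −1.19 ± 0.35 (adjusted p = 0.241 by edgeR, 0.0633 by DESeq2, exact permutation p = 0.1). Of 9 beta-2 integrin genes and partners, Itgax included, 8 were tested and all 8 had a lower mean (median −0.99). In edgeR 0 passed the adjusted threshold and 4 had an unadjusted p under 0.05, against 7.59% of all genes on the lower side. DESeq2 called 3, Itgb2, Itgal and Fermt3, against 1.51% of the genes it tested on the lower side. Itgb2 had 30.4, 12.3 and 25.5 CPM in wild-type and 9.36, 10.4 and 4.94 CPM in knockout mice (−1.46 ± 0.39, adjusted p = 0.229 by edgeR, 0.0122 by DESeq2). Itgal, the alpha chain of LFA-1, gave −1.06 ± 0.24 (0.217 and 0.0122), and Fermt3, the kindlin that activates these integrins, −1.23 ± 0.32 (0.22 and 0.0307). Over 89 of its 5784 exon bases Fermt3 overlaps exons of Trpt1 on the other strand, and reads in that stretch alone cannot be told apart. Itgam, the CD11b chain, was low, at 1.04 to 2.65 CPM in wild-type against 0.701 to 1.33 CPM in knockout mice (−0.93 ± 0.44, adjusted p = 0.427 by edgeR). Over 3450 of its 5024 exon bases Itgam overlaps exons of Gm49368 on the same strand. Reads there may have gone uncounted, so the level of Itgam is uncertain.

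**Figure D2:**
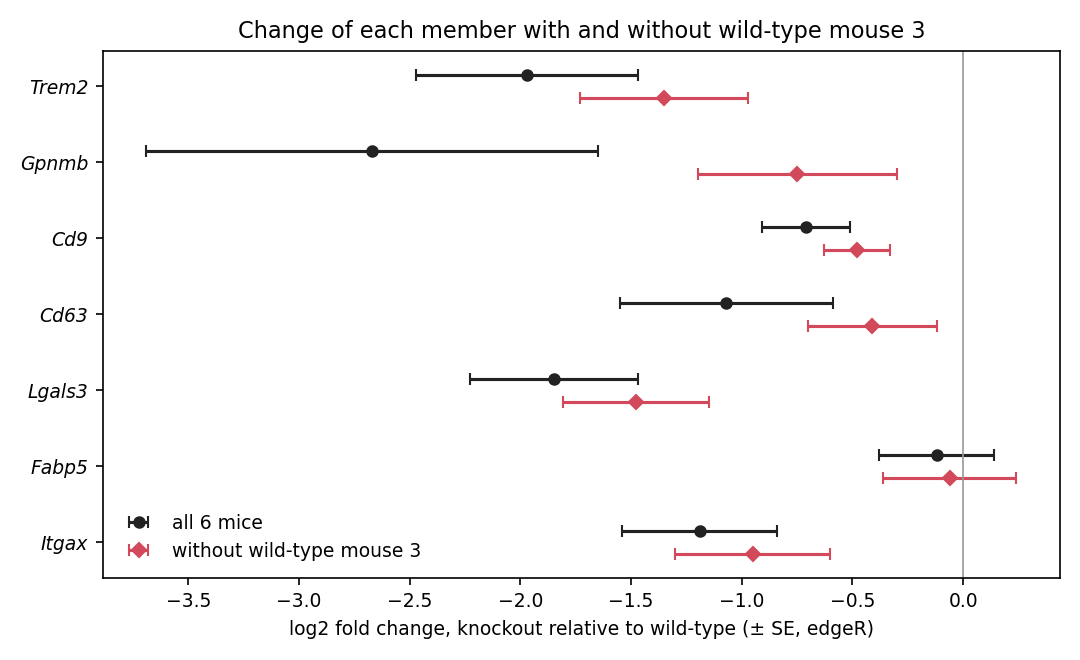
Change of each of the 7 genes. The x axis is the log2 fold change, knockout relative to wild-type, with ± SE from edgeR, from all 6 mice (black circles) and without wild-type mouse 3 (red diamonds), and the vertical line marks no difference. Gpnmb moves from −2.67 to −0.75 and Cd63 from −1.07 to −0.41, while Lgals3 lies at −1.48 and Trem2 at −1.35 without that mouse.

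Taking the genotypes apart by mouse, the values of 5 of the 7 genes did not overlap between genotypes with the knockout lower, against 9.42% of all genes (18.2% in either direction). For 6 of the 7 the highest mouse was wild-type 3, as it was for 23.6% of all genes. Knockout 3 was the lowest mouse for 5 genes and knockout 1 for 2. The median over the 7 genes of log2 CPM, centred on each gene's mean, was 0.276, 0.0614 and 1.45 in wild-type 1, 2 and 3 and −0.645, −0.22 and −1.14 in knockout 1, 2 and 3, so that wild-type 3 stood apart at the top and knockout 3 at the bottom, with the genotypes in order between them.

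Levels between genes were compared per kilobase of annotated exon. In wild-type livers Cd9 was highest at 24.2 ± 6.36 CPM per kilobase, followed by Cd63 at 14.5 ± 9.19, Lgals3 at 11.6 ± 5.37, Fabp5 at 6.85 ± 1.16, Gpnmb at 2.60 ± 3.29, Itgax at 1.48 ± 0.507 and Trem2 at 1.34 ± 0.787 (SD, n = 3). Each gene's range of mean ± SD met that of its neighbour in this order. In knockout livers the order was Cd9 at 14.8 ± 1.78, Cd63 at 6.91 ± 2.5, Fabp5 at 6.30 ± 2.34, Lgals3 at 3.20 ± 0.882, Itgax at 0.645 ± 0.205, Gpnmb at 0.404 ± 0.213 and Trem2 at 0.336 ± 0.154 CPM per kilobase. Cd9 stood clear of Cd63 there and Lgals3 of Itgax, while the other neighbours met within their SD. Lgals3 thus stood above Fabp5 in the wild-type order and below it in the knockout order.

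The wider signature of these macrophages held genes with smaller p values than any of the 7. Of 25 further genes of the lipid-associated macrophage programme 24 were tested, 17 with a lower and 7 with a higher mean in the knockout (median −0.76), and DESeq2 called 10 lower and 1 higher. In edgeR 0 passed the adjusted threshold, and 12 on the lower side and 1 on the higher side had an unadjusted p under 0.05. Over all genes the lower side held 7.59% by that p in edgeR and 1.51% by DESeq2's call. Mmp12, the macrophage elastase, had 35.2, 20.3 and 31.9 CPM in wild-type and 5.31, 6.86 and 4.46 CPM in knockout mice (−2.39 ± 0.25, adjusted p = 0.0607 by edgeR, 2.85e-13 by DESeq2). Lpl, lipoprotein lipase, which frees fatty acids from triglyceride-rich particles, had 91.5, 54.2 and 189 against 22.5, 20.4 and 12.5 CPM (−2.59 ± 0.48, 0.217 and 3.2e-07), with −1.98 without wild-type 3. Clec7a, the beta-glucan receptor dectin-1, had 21.0, 11.9 and 26.4 against 5.64, 6.36 and 3.84 CPM (−1.90 ± 0.32, 0.217 and 1.98e-05). Spp1, osteopontin, had 36.5, 52.7 and 42.3 against 25.5, 22.9 and 18.1 CPM (−0.98 ± 0.18, 0.217 and 0.00194), and it was the only one of these 4 in which wild-type 2 was the highest mouse. These 4 were named for the smallest p values in the list, and all lay lower. Among the 7 genes with a higher mean was Ctsl, the 1 that DESeq2 called higher (0.83 ± 0.20, 0.217 and 0.00152), described below.

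**Figure D3:**
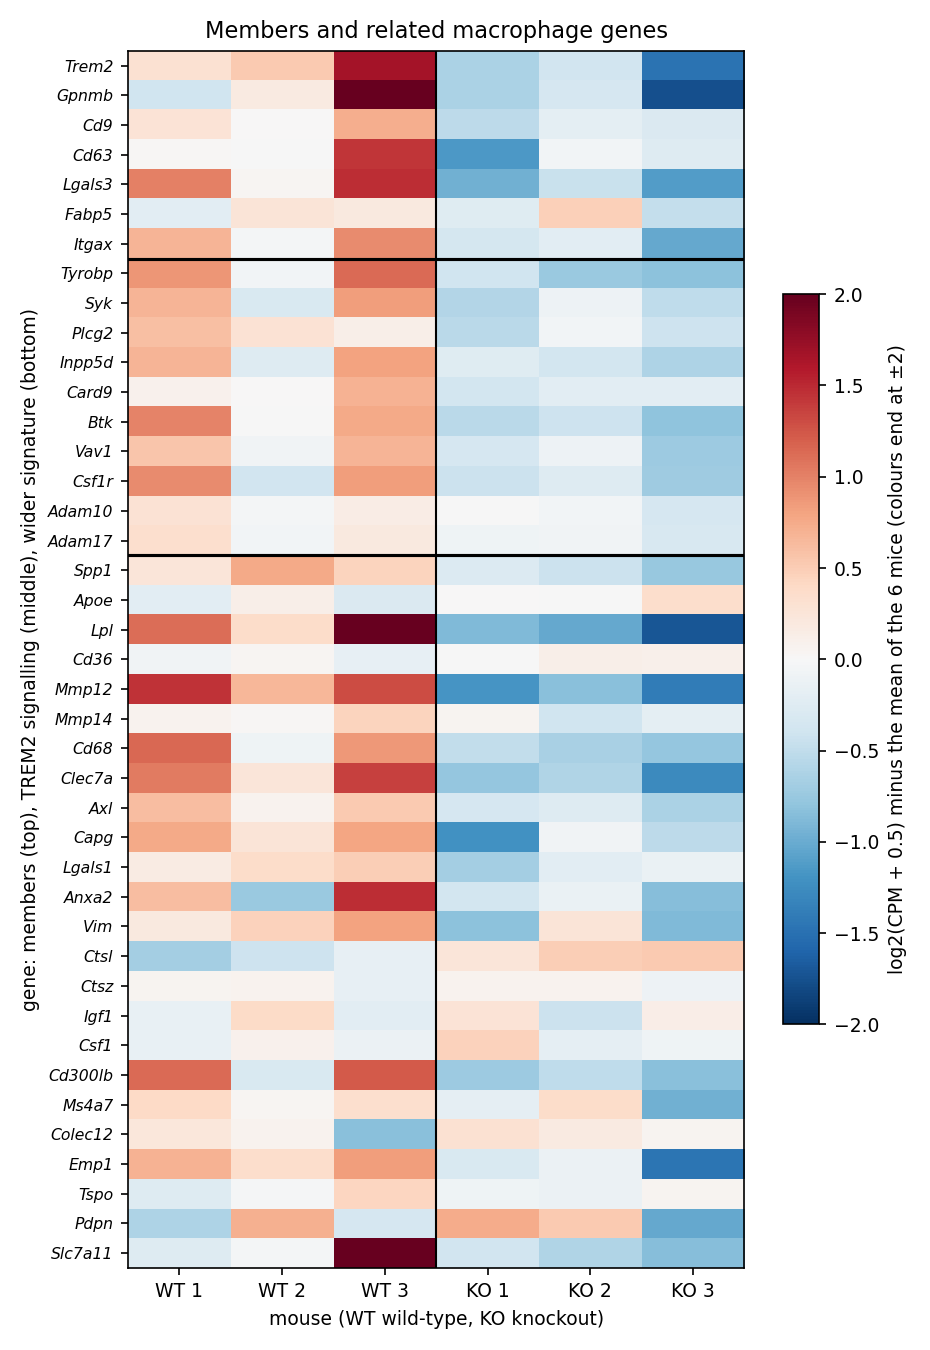
The 7 genes (top), 10 TREM2 signalling genes (middle) and 24 genes of the wider signature (bottom) in each mouse. Colour is log2(CPM + 0.5) minus the mean of the 6 mice, red above and blue below, with colours ending at ±2, columns 1 to 3 wild-type and columns 4 to 6 knockout. Most rows are red in wild-type 1 and 3 and blue in knockout mice with wild-type 2 between them, while Ctsl runs the other way.

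Lipid handling and lysosomal genes lay on both sides. Of 17 genes of macrophage lipid uptake, storage and efflux 16 were tested, 9 lower and 7 higher in mean (median −0.19), with 2 called by DESeq2, both lower: Lpl and Msr1. Msr1, scavenger receptor A, had 41.2, 17.8 and 28.8 CPM in wild-type and 14.5, 11.6 and 12.1 CPM in knockout mice (−1.20 ± 0.29, adjusted p = 0.217 by edgeR, 0.0107 by DESeq2). The cholesterol exporter Abcg1 gave −0.80 ± 0.27 and the lysosomal cholesterol transporter Npc1 0.65 ± 0.25, with adjusted p of 0.294 and 0.329 by edgeR. All 21 lysosomal genes and MITF and TFE factors were tested, 14 lower and 7 higher in mean (median −0.12), and DESeq2 called 3 lower and 1 higher. Cd68, the macrophage lysosomal glycoprotein, had 31.7, 13.2 and 26.1 CPM in wild-type and 9.89, 8.82 and 8.02 CPM in knockout mice (−1.41 ± 0.30, 0.217 by edgeR and 0.00274 by DESeq2). The legumain gene Lgmn gave −1.13 ± 0.29 (0.22 and 0.0132) and the cathepsin S gene Ctss −0.88 ± 0.24 (0.232 and 0.0431). Ctsl, cathepsin L, a gene that hepatocytes express as well, was higher at 2330, 2770 and 2820 CPM in knockout against 1220, 1480 and 1750 CPM in wild-type mice (0.83 ± 0.20, 0.217 and 0.00152). In edgeR 0 genes of either list passed the adjusted threshold, with 4 lower and 1 higher in the lipid list and 6 lower and 1 higher in the lysosomal list under an unadjusted p of 0.05. Over all genes the lower side held 7.59% by that p in edgeR and 1.51% by DESeq2's call.

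Markers of resident macrophages had lower means, as the 7 genes did, and their part in the results was not tested. For all 10 Kupffer cell markers the knockout mean was the lower (median −1.30). In edgeR 8 had an unadjusted p under 0.05 (7.59% of all genes, lower side) and 0 passed the adjusted threshold. DESeq2 called 4 (1.51% of the genes it tested, lower side): Vsig4, Cd5l, Adgre1 and C1qc, the last named after its values were seen. The summed level of all 10 was 925, 319 and 792 CPM in wild-type 1, 2 and 3 and 286 to 308 CPM in the knockout mice, so that wild-type 2 lay close to the knockout range. Clec4f, which marks Kupffer cells alone in liver, had 163, 70.3 and 141 CPM in wild-type and 77.5, 77.9 and 87.6 CPM in knockout mice, with overlap (−0.62 ± 0.28, adjusted p = 0.415 by edgeR). Timd4, the phosphatidylserine receptor of long-lived Kupffer cells, had 12.7, 3.72 and 4.53 CPM in wild-type and 2.46, 2.30 and 3.36 CPM in knockout mice (−1.38 ± 0.49, adjusted p = 0.307 by edgeR), and −0.62 without wild-type 1. Adgre1, F4/80, gave −1.56 ± 0.42 (0.232 by edgeR, 0.0101 by DESeq2). Of 8 monocyte markers 6 had a lower and 2 a higher mean (median −0.76), and DESeq2 called 1, the chitinase-like Chil3 (−3.39 ± 0.73, adjusted p = 0.217 by edgeR, 0.00191 by DESeq2), which was at 0 in knockout 3. Ccr2, the chemokine receptor of recruited monocytes, had 4.30, 4.57 and 6.98 CPM in wild-type and 2.79, 2.76 and 2.40 CPM in knockout mice (−1.0 ± 0.27, adjusted p = 0.226 by edgeR). Ly6c2, which defines inflammatory monocytes, was under 1 CPM in all 6 mice (−0.74 ± 0.63, adjusted p = 0.694 by edgeR). The summed monocyte list was 1410 to 1960 CPM in wild-type against 1760 to 2250 CPM in knockout mice, and most of it was Fn1, which hepatocytes express.

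Set against the Kupffer cell markers, none of the 7 genes separated the genotypes. This ratio was chosen after the values were seen. Per 100 reads of the 10 Kupffer cell markers, Lgals3 had 2.40, 3.52 and 3.93 reads in wild-type and 1.85, 2.54 and 1.57 in knockout mice, and Trem2 had 0.435, 1.49 and 1.40 against 0.649, 0.748 and 0.273. Gpnmb had 0.388, 1.76 and 5.25 against 1.04, 1.24 and 0.364 reads, and Itgax 0.824, 1.39 and 1.16 against 1.21, 1.25 and 0.66. For Cd9, Cd63 and Fabp5 all 3 knockout mice lay above wild-type 1. Cd9 had 5.01, 12.0 and 8.05 against 9.18, 10.8 and 10.4 reads and Fabp5 2.13, 8.60 and 3.30 against 6.70, 10.4 and 5.39 reads, so that the knockout mean was the higher for both on this scale. Cd63 had 3.71, 10.6 and 11.7 against 5.29, 10.6 and 9.42 reads. The knockout mean stayed the lower for Lgals3, Trem2 and Gpnmb, and narrowly so for Itgax and Cd63. The genotypes overlapped for all 7 genes on this scale, 0 of 7 being separate, and 0 of 7 were separate per read of Tyrobp, an adaptor shared by myeloid and natural killer cells. The share of all genes that separate on either scale was not computed, so these counts cannot be read as particular to the 7 genes. The summed Kupffer markers ran from 319 to 925 CPM in wild-type mice against 286 to 308 CPM in knockout mice, and this spread enters every such ratio. The Kupffer markers themselves had lower means in the knockout, so the ratio compares the 7 genes with other macrophage genes and does not measure RNA per cell.

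**Figure D4:**
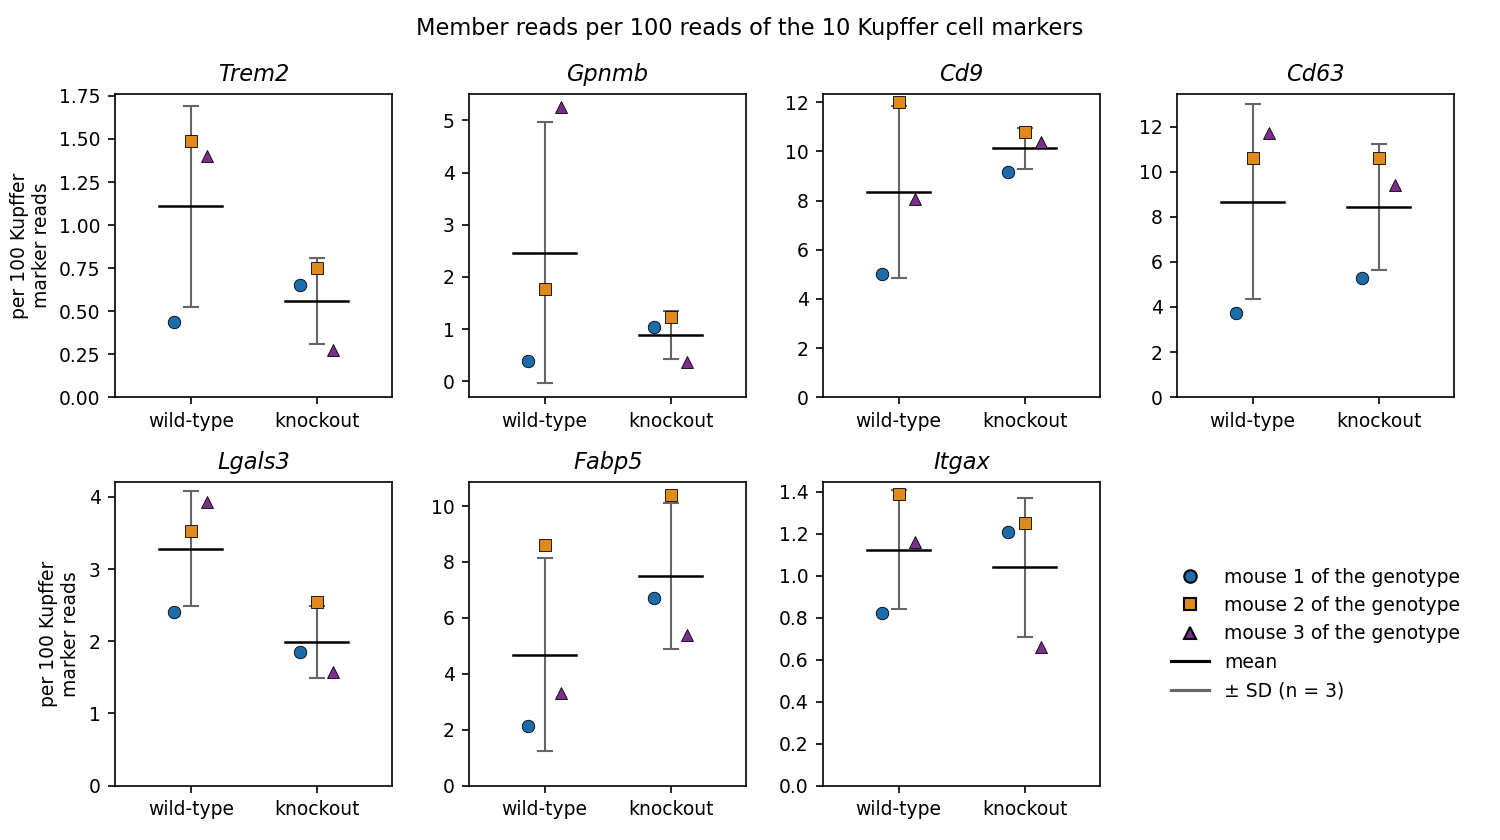
Reads of each of the 7 genes per 100 reads of the 10 Kupffer cell markers in every liver. The y axis is this ratio on a linear scale of its own per gene, symbols are mice 1, 2 and 3 of each genotype, horizontal bars are means and whiskers ± SD (n = 3). The genotypes overlap in every panel, for Lgals3 only between wild-type 1 at 2.40 and knockout 2 at 2.54.

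Other cells that carry some of the 7 genes were checked in the same way, and their part in the results was not tested. All 8 tested dendritic cell markers of 10, the other main source of Itgax, had a lower mean (median −0.34), with 0 under an unadjusted p of 0.05 in edgeR and 0 called by DESeq2, and they summed to 157 to 222 CPM in wild-type against 124 to 213 CPM in knockout mice. Cholangiocyte markers, whose cells express Cd9, Lgals3 and Spp1, summed to 52.0 to 65.2 CPM in wild-type against 27.5 to 36.4 CPM in knockout mice, of which Spp1 made up most. Of the defining ones, Krt19 had 1.52, 2.94 and 0.764 against 0.597, 1.00 and 0.48 CPM (−1.24 ± 0.56, adjusted p = 0.409 by edgeR, −0.65 without wild-type 2) and Epcam gave −0.26 ± 0.33 (0.811), while Cftr was too low to test. Platelet markers, whose cells carry Cd9 and Cd63, summed to 5.68 to 6.53 CPM against 3.45 to 5.21 CPM, with Pf4 at −0.83 ± 0.39 (0.427) and Itga2b at −0.38 ± 0.25 (0.582). Gp1bb had 0 counts in all 6 mice, but 1902 of its 2087 exon bases overlap exons of Sept5 on the same strand. Its reads may have gone uncounted, so this 0 does not show that Gp1bb was absent. Stellate cell markers summed to 419 to 616 against 371 to 482 CPM (7 of 8 lower, median −0.55), and DESeq2 called Col3a1, a fibrillar collagen gene (−1.47 ± 0.46, adjusted p = 0.277 by edgeR, 0.0196 by DESeq2). Neutrophil markers had 3 of 7 genes tested, all lower in mean (median −0.64; 5.16 to 9.53 against 2.88 to 6.64 CPM). The remaining lists had medians near zero or above: B and T cell markers 0.14 (3.36 to 15.9 against 2.52 to 11.5 CPM), sinusoidal endothelial markers 0.01 (140 to 317 against 185 to 267 CPM), hepatocyte markers 0.19 and housekeeping genes 0.04. The hepatocyte markers, which define the labelled tissue, summed to 86200 to 102000 CPM in wild-type against 91700 to 115000 CPM in knockout mice. Among the housekeeping genes DESeq2 called Ppia, cyclophilin A, lower (−0.69 ± 0.13, adjusted p = 0.217 by edgeR). Beside the counts of these lists, the knockout mean was the lower for 51.1% of all genes tested. On the lower side 7.59% of all genes had an unadjusted p under 0.05 in edgeR, and DESeq2 called 1.51% of the genes it tested.

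Over all 6 mice Fabp5 was the least like the other 6 genes, while within genotypes the pairs were more mixed. On the log2 CPM scale over the 6 mice, Pearson's r was 0.96 for Lgals3 with Itgax and with Cd9, 0.94 for Cd9 with Cd63 and 0.93 for Trem2 with Gpnmb, whereas Fabp5 gave 0.32 to 0.56 with the other 6. After the genotype means were removed, Trem2 with Gpnmb gave 0.95 and Cd9 with Cd63 0.94, and the lowest pair without Fabp5 was Cd63 with Itgax at 0.36. Fabp5 then gave 0.22, with Cd9, to 0.67, with Trem2. These are descriptions over 6 livers that share genotype and, Fabp5 aside, the high values of wild-type 3, and no p is given.

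Of 11179 protein-coding genes compared, those most like the mean of the 7 genes over the 6 mice were Ncstn (r = 0.996), a subunit of gamma-secretase, Pld3 (0.994), a lysosomal exonuclease, Chpf (0.991), a chondroitin polymerising factor, Tmem164 (0.99), Galns (0.99), a lysosomal sulphatase, and Maged2 (0.989). Their log2 fold changes ran from −0.14 ± 0.11 for Ncstn to −1.24 ± 0.33 for Maged2, with adjusted p of 0.663 and 0.22 by edgeR. With genotype means removed the highest were Kif3b (0.997), a kinesin motor, Ncstn (0.997), Atf7ip (0.996), Nr2c2 (0.994), Tmsb10 (0.993), an actin-binding thymosin, and Plekhg2 (0.993). Among these Tmsb10 had 14.7, 15 and 38.8 CPM in wild-type and 10.0, 14.7 and 8.30 CPM in knockout mice, again with wild-type 3 the highest (−1.05 ± 0.42, adjusted p = 0.371 by edgeR, −0.42 without that mouse), while Atf7ip lay at 0.43 ± 0.15 (0.299). These likenesses are descriptions over 6 mice.

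For 4 of the 7 genes, at least 5% of the 50-base stretches of their transcripts occur exactly in another gene, so some reads could have been assigned elsewhere. Smaller shares were not listed. Of the 50-base stretches of Cd63, 9.7% occur exactly in its pseudogene Cd63-ps, of Cd9 8.48% in Gm26728 on the opposite strand, of Itgax 8.02% in Itgad and of Fabp5 5.1% in the pseudogene Gm6166. Those genes had 373, 8, 3 and 42 counts in all 6 libraries together. Lgals8 also overlaps exons of Heatr1, and Npc1 those of Rmc1, on the other strand, so that their reads are uncertain to that extent. Of its 6489 exon bases Ctsl shares 1742 with Gm47123 on the other strand and 395 with Gm49230 on the same strand. Spp1 shares 309 of its 1648 exon bases with Gm42793 on the same strand. Reads in these stretches may have gone uncounted, so the levels of Ctsl and Spp1 are uncertain to that extent. None of the 7 shared 5% of its stretches with another of them.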

How the data were processed

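Poly(A) RNA of mouse liver was sequenced in 6 libraries, 1 per mouse, and the mice named in the labels were taken as replicates. The authors deposited raw counts of reads per Ensembl gene, not normalised. Per the submitters' processing notes, the tools were featureCounts 1.5.0-p3, HISAT2 2.0.5 and StringTie 1.3.3b and the build GRCm38.p6. The annotation release is not given in the sources used here, nor is the strand setting or how reads with several matches were treated, and per the labels' protocols cDNA was primed with random hexamers and no strand-marking step is described.

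Of 54682 rows, 54495 matched the GENCODE annotation of GRCm38, used for symbols and positions, and 150 rows without a gene name (0.273% to 0.509% of counts) were left out of library sizes and tests. Total counts were 15493009 to 19346623 per library. Counts were tested in R 4.3.3 with edgeR 4.0.16 (filterByExpr, TMM, robust quasi-likelihood F test, Benjamini-Hochberg over 14145 genes, threshold 0.05), and the code was checked on simulated data. Standard errors were taken as the size of the log2 fold change over the root of F. The biological coefficient of variation was 0.237.

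The 7 genes and the 20 other lists were chosen with earlier results of these data known, and no list was tested as a set. Named genes are Cd44, the 7 genes, up to 4 per list of at least 1 CPM by smallest p, fixed cell markers, and the 6 genes most like the 7 by each measure. Alternatives were DESeq2 1.42.0, its size factors, limma 3.58.1 (voom), no count filter, 1 CPM in 3 libraries, mouse number as a block, leaving out each mouse, lengths of the longest transcript, and, added after the data were seen, the older quasi-likelihood fit. Promoters come from RefSeq on GRCm38.p6.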

Additional observations from a re-analysis of the deposited data

How the results depend on the processing

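The count of genes called depended on the tool and on single mice. edgeR called 2 genes in all 6 mice, 6 without a count filter, 1 with the older quasi-likelihood fit, and 0 to 151 as each mouse was left out, the 151 when wild-type 2 was absent, 1 when knockout 1 was, and 0 when knockout 2 or 3 was. DESeq2 called 330 and limma-voom 0. Of the 7 genes edgeR called 0, and 0 to 1 as each mouse was left out. DESeq2 called 2, Trem2 at −1.99 (adjusted p = 0.0112) and Lgals3 at −1.85 (0.00038), and edgeR without wild-type 2 called Lgals3 at −2.14 (0.0188), which ran from −2.14 to −1.48 as each mouse was left out. The cause was not tested.

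The median log2 fold change of the 7 genes ran from −1.42 to −0.75 as each mouse was left out, with −0.75 without wild-type 3, and from −1.19 to −1.16 under the other settings. The number with a lower mean was 7, or 6 without knockout 3, where Fabp5 turned to 0.08 (range −0.46 to 0.08). Without wild-type 3, Kif3b turned to 0.08 (range −0.18 to 0.08) and Nr2c2 to 0.01 (range −0.09 to 0.01). Of 91 values of the 7 genes under alternatives, 87 kept their direction and their side of the threshold, 3 newly passed it and 1 turned. For 54 other named genes 647 of 699 values did so, 46 newly passed it, 4 no longer passed it, all of Cd44, and 2 turned. The order of levels per kilobase was the same with the length of the longest transcript.

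The mouse numbers did not pair the mice: the deviations of same-numbered mice from their genotype means correlated at −0.02, −0.02 and −0.01. With mouse number as a block edgeR called 1 gene and 0 of the 7, whose adjusted p ran from 0.432 to 0.841 and whose median was −1.16.

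With 15493009 to 19346623 counts per library, Trem2 rests on 12 to 218 reads per mouse, Itgax on 29 to 181 and Gpnmb on 16 to 817, and 3 mice per genotype limit every comparison.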
